A study of Bos indicus with 9 samples.

Results

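The stretch of chromosome 18 from 21500000 to 23200000 on ARS-UCD1.2, chosen to hold the neighborhood of FTO, IRX3, and IRX5, carried 84 of the 140923 open chromatin peaks in the 3 deposited lists. Of these, 61 came from hypothalamus, 18 from muscle, and 5 from liver, out of 78528, 40104, and 22291 peaks in the respective lists. Every peak that overlaps the stretch is a member, whatever its strength. The study profiled hypothalamus, skeletal muscle, and liver of the same 3 unrelated Brahman heifers (indicine cattle), past puberty and alike in age and weight, with 9 libraries in all and 3 per tissue. ATAC-seq, which uses the Tn5 transposase to cut and tag accessible DNA, was run on nuclei from frozen whole tissue, so the cell types of a tissue were pooled. More cells with an open site and a site that is more open in each cell cannot be told apart in such material.

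FTO encodes an enzyme that removes methyl groups from adenosine in RNA. IRX3 and IRX5 encode Iroquois homeobox transcription factors, which pattern the nervous system and other tissues in the embryo. In humans, variants in the introns of FTO are among the best known associations with body mass, and regulatory DNA within FTO can contact the IRX3 and IRX5 promoters over a long distance. The hypothalamus holds the neurons that govern appetite and energy expenditure, which is why this neighborhood is of interest there. In the RefSeq gene table of an indicine assembly (NIAB-ARS_B.indTharparkar_mat_pri_1.0), where all 10 of the genes looked for were found, the protein-coding genes on chromosome 18 follow each other as CHD9, RBL2, AKTIP, RPGRIP1L, FTO, IRX3, IRX5, IRX6, MMP2, and LPCAT2. CHD9 is a chromatin remodeler, RBL2 a cell cycle regulator of the retinoblastoma family, AKTIP a factor of vesicle transport and telomere upkeep, and RPGRIP1L a protein of the ciliary transition zone. That assembly is not the one of the peaks. Gene positions on ARS-UCD1.2 were not used here, so no peak is assigned to a promoter, exon, or intron of FTO, IRX3, or IRX5, which of these genes lie wholly inside the stretch was not checked, and the tissue labels were not checked against marker genes. The paper itself annotated its peaks with genomic feature, nearest gene, and distance to the gene start, and that annotation was not used here.

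Each peak has 2 values from the peak caller Genrich, both computed by the authors from the 3 heifers of a tissue together. The first is the −log10 p at the summit, the highest point of the peak, and the second is the area under the curve (AUC), which grows with both height and length. Neither was scaled between tissues, so peaks are compared by percentile, the share of peaks in the whole list of that tissue with a lower value. No value of a single heifer is in the lists, so tissues were not tested against each other, read depth is unknown from the lists, and the spread between heifers cannot be given. Mapping statistics per sample are reported in the paper but were not used. The 95% Wilson intervals of shares cover counting error only.

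Hypothalamus peaks covered 45.4 kb (2.67% of the stretch), muscle peaks 11.3 kb (0.668%), and liver peaks 3.48 kb (0.205%). Per Mb, this came to 35.9 peaks in hypothalamus, against 44.2 on the whole of chromosome 18 and 27.1 over chromosomes 1 to 29 and X, each measured up to its last peak. In muscle the stretch had 10.6 peaks per Mb, against 23.0 on chromosome 18 and 11.6 over all of these chromosomes. In liver it had 2.94, against 10.9 and 4.59. Taken as a whole, the stretch was thus sparser than the rest of its own chromosome in each tissue, and above the average of all chromosomes only in hypothalamus. Among 1529 consecutive windows of 1.70 Mb, 73.0% held fewer hypothalamus peaks (median 38.0), 60.6% fewer muscle peaks (median 13.0), and 52.5% fewer liver peaks (median 4).

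**Figure D1:**
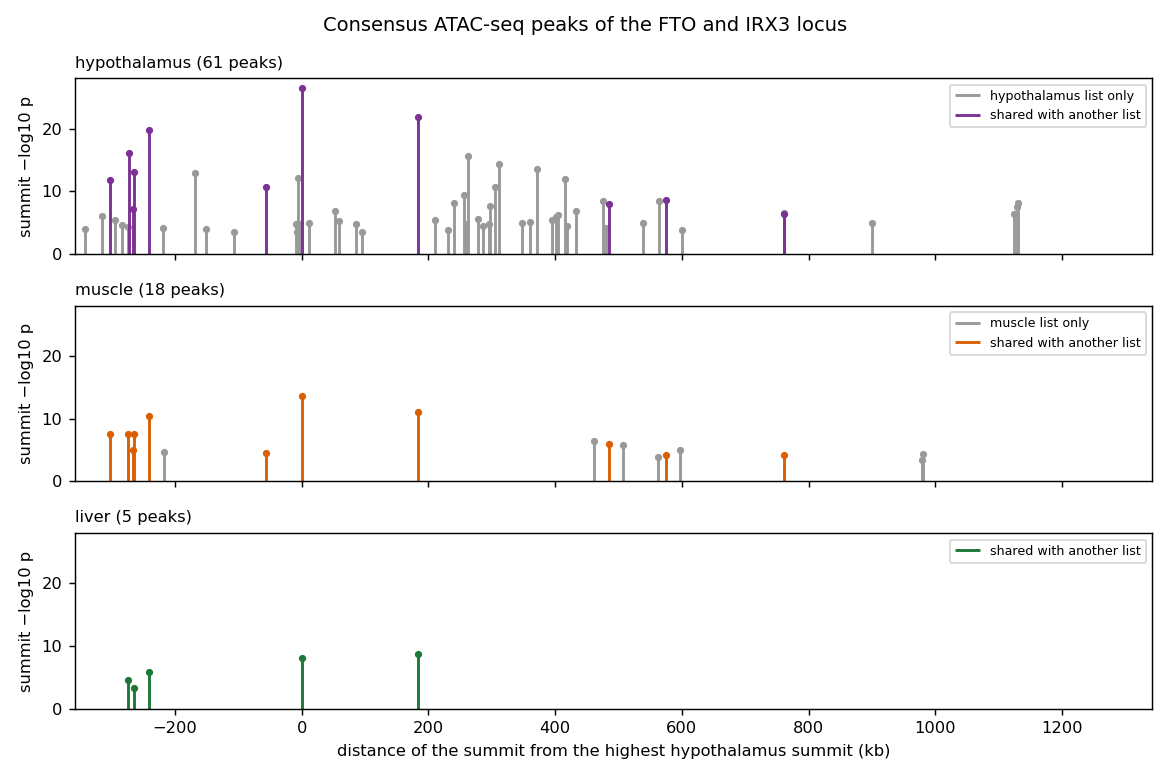
Peaks of the FTO and IRX3 locus in hypothalamus (61), muscle (18), and liver (5). Each line stands at the summit of a peak, with its distance in kb from the strongest hypothalamus summit on the horizontal axis and the summit −log10 p, not scaled between lists, on the vertical axis; grey peaks are in 1 list only. The hypothalamus panel is dense over the first 1 Mb of the stretch, liver has no peak beyond the line that reaches 8.73, and no list has a peak in the last part.

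Peaks became sparse after 22.5 Mb in hypothalamus and muscle. Counted by summit, the hypothalamus list had 26 peaks before 22 Mb, 29 from 22 to 22.5 Mb, and 6 after 22.5 Mb, or 52.0, 58.0, and 8.57 per Mb. Chromosome 18 as a whole had 44.2 per Mb in hypothalamus, so only the last part was sparser than the chromosome in that list. Muscle had 8, 7, and 3 peaks in the same parts. All liver peaks but 1 lay in the first part, the remaining one in the next, and none after 22.5 Mb. Of the 17 windows of 100 kb, 14 held a peak of some list. The fullest windows in hypothalamus held 9 peaks each and started at 21500001, 22100001, and 22200001, while muscle and liver had none in the last 2 of these.

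The longest stretches without a peak of any tissue that lay wholly inside were in the distal part. One of 159 kb ran from 22458543 to 22617195, one of 143 kb from 22837666 to 22980684, and one of 139 kb from 22618901 to 22757654. Of the 83326 stretches between peaks on chromosomes 1 to 29 and X, 3.49%, 3.97%, and 4.11% were at least as long. From 22988763 no peak was listed up to 23232445, which is past the end of the stretch, a distance of 244 kb that 1.88% of stretches reached.

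Hypothalamus and muscle members had median ranks near the middle of their lists. The median summit −log10 p was 6.14 in hypothalamus (range 3.54 to 26.46), against 5.99 over the whole list, and the median percentile was 51.8. Muscle had a median of 5.43 (range 3.38 to 13.54) against 5.35 in its list, with a median percentile of 50.9. Liver peaks had a median of 5.81 (range 3.27 to 8.73) against 5.07, with a median percentile of 63.9. This liver median rests on 5 peaks and depended on the measure, at 78.6 among liver peaks on chromosomes 1 to 29 and X, 80.3 by AUC, and 45.0 by AUC per bp. The spread was wide in every list, and 13 of 61 hypothalamus, 4 of 18 muscle, and 1 of 5 liver peaks fell below the 25th percentile. On chromosomes 1 to 29 and X, these were 18205 of 71028, 8690 of 30483, and 4235 of 12063 peaks. At the top, 5 hypothalamus peaks (8.20%), 3 muscle peaks (16.7%), and 0 liver peaks reached the 90th percentile, beside 10.4%, 6.58%, and 1.83% of the peaks on chromosomes 1 to 29 and X. Median lengths were 515 bp in hypothalamus, 478 bp in muscle, and 613 bp in liver.

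**Figure D2:**
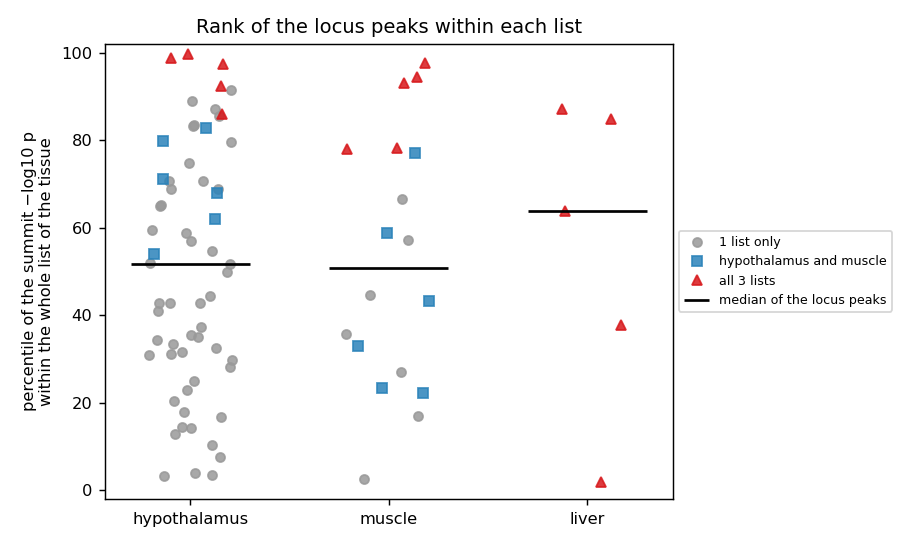
Percentile of the summit −log10 p of each of the 84 peaks within the whole list of its tissue (vertical axis, in percent), for hypothalamus, muscle, and liver. Marker shape and color show how many lists hold the region, horizontal scatter within a tissue has no meaning, and black lines are the medians (51.8, 50.9, and 63.9). Regions in all 3 lists sit high in hypothalamus and muscle, from 86.0 and 78.1 upward, and run from 1.9 to 87.2 in liver.

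Most hypothalamus peaks of the neighborhood had no overlapping peak in the other lists. The lowest AUC in each whole list was 200.0, so a weaker signal in another tissue could go unlisted. Merged over the lists, the peaks formed 68 regions, of which 50 were listed in hypothalamus only, 7 in muscle only, 6 in hypothalamus and muscle, and 5 in all 3 tissues. No region was listed in liver only, or in liver with just one of the others. The 50 hypothalamus-only peaks were 82.0% of the hypothalamus members (interval 70.5 to 89.6), beside 74.8% of all hypothalamus peaks on chromosomes 1 to 29 and X. A muscle peak overlapped 11 of the 61 hypothalamus peaks (18%, interval 10.4 to 29.5), beside 24.3% on these chromosomes, and peaks of both other tissues overlapped 5 (8.20%, 3.55 to 17.8), beside 12.9%. In muscle, 7 of 18 peaks were in that list only (38.9%, 20.3 to 61.4), beside 36.0%, 11 overlapped a hypothalamus peak (61.1%, 38.6 to 79.7), beside 61.0%, and 5 overlapped both others (27.8%, 12.5 to 50.9), beside 30.4%. Of the 5 liver peaks, none was in liver only (interval 0 to 43.4%), beside 7.78%, and all 5 overlapped both others (56.6 to 100%), beside 79.3%. Each background share lay inside the interval of the members, so by counting error alone the members could not be set apart from the chromosomes in how they were shared. The lists differ in length, and with the 22291 strongest peaks by summit kept in each, 15 hypothalamus, 10 muscle, and 5 liver peaks were left in the stretch, of which 9, 4, and 0 were in 1 list only. The share in 1 list only over all chromosomes was not computed for these shortened lists. These counts therefore have no background and do not set the members apart.

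The regions listed in all 3 tissues included the strongest peaks of the stretch in hypothalamus and muscle. In liver this was fixed, since all 5 liver peaks lie in these regions. The top one by summit in hypothalamus and muscle lies from 21855870 to 21859189 in hypothalamus, is 3320 bp long there, and had a summit −log10 p of 26.46 (percentile 99.8) and an AUC of 18920. In muscle it measured 13.54 (percentile 97.7, AUC 6291) and in liver 8.13 (percentile 84.9, AUC 2629). In all 3 tissues, this region also had the largest AUC of the neighborhood. A cluster of weaker peaks preceded it in hypothalamus. Between 21847920 and 21855157 lay 5 hypothalamus-only peaks with summits from 3.55 to 12.08, the strongest of which ran from 21851503 to 21852514.

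The last of these regions along the chromosome lies from 22039326 to 22041031 in hypothalamus, with a summit −log10 p of 21.87 (percentile 98.8, AUC 10401). It measured 11.08 in muscle (percentile 94.5, AUC 3105) and 8.73 in liver (percentile 87.2, AUC 1981). This was the highest liver summit of the stretch. Hypothalamus and liver placed the summit at the same base, 22040315, and muscle placed it 29 bp away.

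The region from 21616247 to 21618488 in hypothalamus had a summit −log10 p of 19.84 (percentile 97.4, AUC 15839). Muscle had 10.48 there (percentile 93.1, AUC 4357) and liver 5.81 (percentile 63.9, AUC 1371). The other 2 regions had the lowest liver summits of the 5. From 21583320 to 21585780, the hypothalamus summit was 16.11 (percentile 92.4, AUC 13539), the muscle summit 7.62 (percentile 78.2, AUC 2132), and the liver summit 4.58 (percentile 37.7, AUC 569.6). From 21592338 to 21593742, it was 13.07 in hypothalamus (percentile 86.0, AUC 6021), 7.61 in muscle (percentile 78.1, AUC 2580), and 3.27 in liver (percentile 1.9, AUC 278.1), so this region stood near the bottom of the liver list. Over chromosomes 1 to 29 and X, peaks with an overlap in both other lists had a median summit of 15.60 in hypothalamus, 7.60 in muscle, and 4.86 in liver, beside 19.84, 10.48, and 5.81 for these 5 regions.

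**Figure D3:**
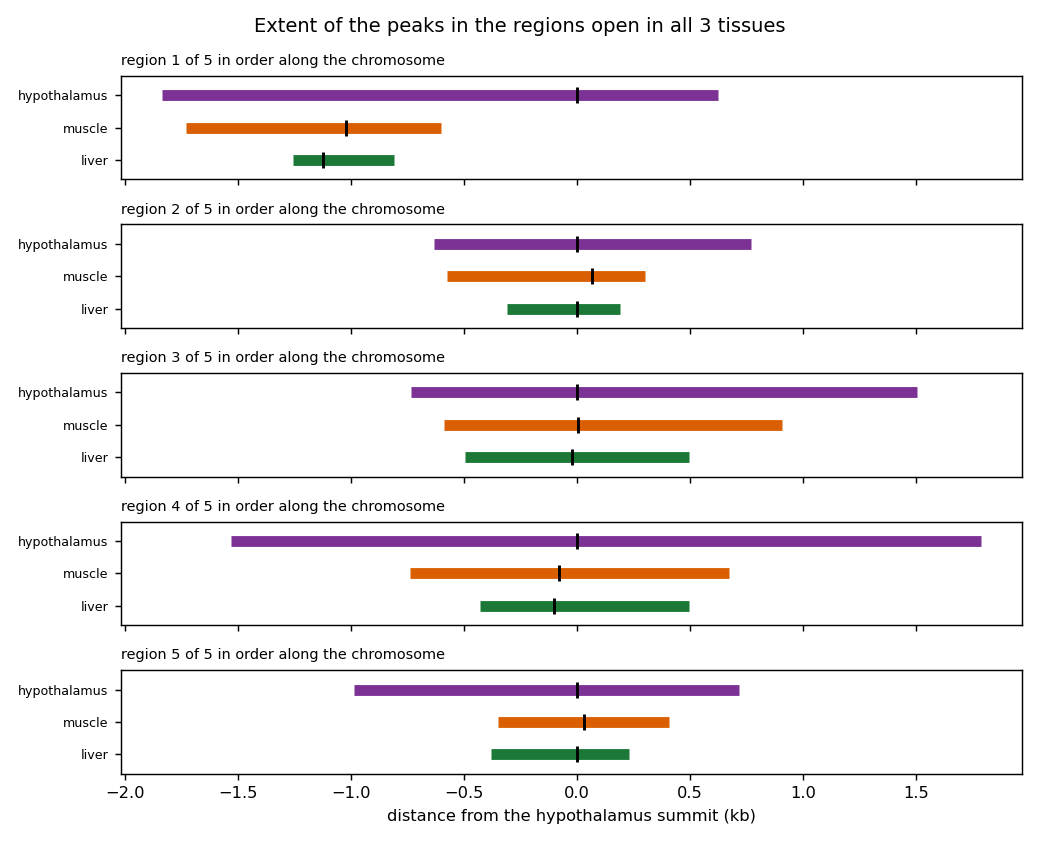
Extent of the hypothalamus, muscle, and liver peaks in the 5 regions listed in all 3 tissues, in order along the chromosome, with distance from the hypothalamus summit in kb on the horizontal axis and black ticks at each summit. The hypothalamus bar spans the others in all 5 regions, and in the first region its summit stands 1023 bp from the muscle summit and 1126 bp from the liver summit.

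Shared regions were widest in hypothalamus and had nearly the same summit in each tissue. The liver peak lay wholly inside the hypothalamus peak in 5 of 5 regions, beside 88.3% of the 8894 one-to-one pairs on chromosomes 1 to 29 and X, and had a median of 35.7% of its length, beside 33.0%. Muscle peaks lay inside the hypothalamus peak in 9 of 11 regions, beside 76.2% of 15371 pairs, with a median of 62.5% of its length, beside 54.4%. The 2 exceptions were from 22341597 to 22342623, where the muscle peak of 1027 bp enclosed a hypothalamus peak of 562 bp, and from 22618392 to 22618900, where a muscle peak of 509 bp reached past a hypothalamus peak of 494 bp. The summits of muscle and hypothalamus were a median of 33.0 bp apart (range 2 to 1023), beside 28 bp, and those of liver and hypothalamus 24.0 bp (range 0 to 1126), beside 32.0 bp. The largest distances both belonged to the region from 21583320, where the hypothalamus summit stood outside the muscle and liver peaks.

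In every shared region the hypothalamus summit ranked higher in its list than the muscle or liver summit did in theirs. This did not hold throughout by AUC percentile. Muscle ranked higher by AUC from 21592338 (88.4 against 88.0) and from 22341597 (70.2 against 66.7), and hypothalamus in the other shared regions. By summit, the median percentile difference, muscle minus hypothalamus, was −9.1 points over 11 regions, beside −15.2 for pairs on chromosomes 1 to 29 and X. The muscle summit ranked higher in 0 of the 11, beside 18.2% of those pairs. The differences of the 11 regions ranged from −49.1 to −2.2, and whether the medians differ was not tested. Among the 6 regions listed in hypothalamus and muscle alone, the ranks were close from 21555019 to 21556135, at percentile 82.9 in hypothalamus and 77.1 in muscle, and far apart from 22431124 to 22433168, at 71.2 and 22.2, and from 21801461 to 21803443, at 79.8 and 32.9. The latter 2 were long hypothalamus peaks of 2045 and 1983 bp over muscle peaks of 256 and 458 bp. Liver percentiles were higher than those of muscle in 0 of 5 regions, beside 14.1% of 9429 pairs, with a median difference of −29.2 points, beside −24.5. Against hypothalamus, liver was higher in 0 of 5, beside 9.66% of pairs, with a median difference of −33.5 points, beside −42.4. Of the 22291 liver peaks, 12063 lie on chromosomes 1 to 29 and X, and ranked against these alone, the liver peaks from 21583899, 21592661, 21616486, 21856969, and 22039933 stood at percentiles 50.4, 2.6, 78.6, 96.2, and 97.2. On these chromosomes lie 30483 of 40104 muscle and 71028 of 78528 hypothalamus peaks. Ranked against these alone, hypothalamus stayed highest in all 11 regions, but gaps narrowed. The region from 21855870 stood at 99.9 in hypothalamus and 99.7 in muscle, and that from 22039326 at 98.9 and 97.5. From 22431124 the ranks stayed far apart, at 70.9 and 25.4.

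**Figure D4:**
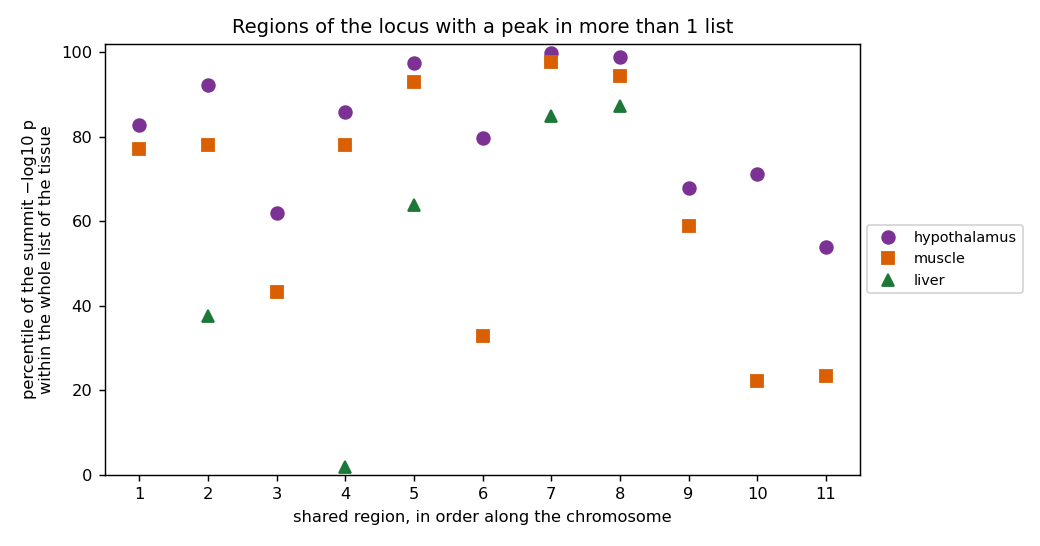
Percentile of the summit −log10 p within the whole list of the tissue (vertical axis, in percent) for the 11 regions listed in more than 1 tissue, in order along the chromosome; circles are hypothalamus, squares muscle, and triangles liver. The hypothalamus marker is the highest in all 11 regions, and among the 5 regions listed in all 3 tissues the markers are closest in the region at 99.8, 97.7, and 84.9 and in the next one at 98.8, 94.5, and 87.2.

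After the shared region from 22039326 came a run of peaks listed in hypothalamus only. From 22067843 to 22289864, over 222 kb, 21 hypothalamus peaks followed each other with no muscle or liver peak on or between them. Among 13881 such runs on chromosomes 1 to 29 and X, 1.70% held as many peaks, and these long runs together held 13.2% of all hypothalamus-only peaks. The summits in the run ranged from 3.90 to 15.60 with a median of 5.98, and 10 of the 21 stood at or above the middle of the hypothalamus list. The strongest, from 22118872 to 22120114, had a summit −log10 p of 15.60 (percentile 91.5) and an AUC of 5327, and was the highest summit of all 50 hypothalamus-only peaks in the stretch. Next in the run, named after their values were seen, were the peaks from 22168652 to 22169545 with 14.32 (percentile 88.9), from 22228877 to 22229646 with 13.50 (percentile 87.1), and from 22272157 to 22273110 with 11.95 (percentile 83.2). The largest AUC of a hypothalamus-only peak, 5407, belonged to the peak from 21688653 to 21689807 outside the run (summit 12.86), also named after its value was seen. The median summit of the hypothalamus-only members was 5.38, beside 5.35 for hypothalamus-only peaks on chromosomes 1 to 29 and X, and their median length was 474 bp, beside 475 bp.

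Muscle-only peaks were short and of low to middle rank. They were 203 to 498 bp long (median 273, beside 402 on chromosomes 1 to 29 and X), with summits from 3.38 to 6.48 (median 4.66, beside 4.53). Of the 7, 4 lay past the run of hypothalamus-only peaks and before 22.5 Mb. The strongest ran from 22318703 to 22319200, with a summit −log10 p of 6.48 (percentile 66.5) and an AUC of 917.4. It was followed by the peak from 22364739 to 22365169 with 5.78 (percentile 57.2), the peak from 22455074 to 22455346 with 5.07 (percentile 44.6), and the peak from 22419062 to 22419277 with 3.97 (percentile 17). Farther along, 2 weak muscle-only peaks lay close together, from 22836376 to 22836645 with 3.38 (percentile 2.6) and from 22837271 to 22837665 with 4.32 (percentile 27.0). The last, from 21640202 to 21640404, had 4.66 (percentile 35.8) and was the shortest muscle peak of the stretch.

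After 22.5 Mb, 6 hypothalamus peaks were left, all of middle rank. Their summits ranged from 4.99 to 8.19, and 3 of them lay together, from 22980685 to 22981183 with 6.39, from 22985107 to 22985632 with 7.56, and from 22988465 to 22988762 with 8.19, the last named being the final peak of the stretch in any tissue. The outermost members and their neighbors show how the limits fell. The first hypothalamus peak inside, 16.0 kb from the lower limit, had a summit of 4.06, and the last one before it lay 960 kb outside that limit with 4.89. Just past the upper limit, at 32.4 kb, a region listed in all 3 tissues lay from 23232446 to 23235731, with a summit of 20.92 (percentile 98.3) and an AUC of 18361 in hypothalamus, 7.52 (percentile 77.3) in muscle, and 3.64 (percentile 8.7) in liver. This region is no member and enters no count above.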

How the data were processed

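The 9 ATAC-seq libraries, 1 per tissue from each of 3 heifers, were aligned by the authors to ARS-UCD1.2 with HISAT2, allowing several placements per read. Peaks were called by the authors with Genrich 0.6.1 at a p value of 0.01, in ATAC-seq mode and without PCR duplicates or mitochondrial DNA. The heifers of a tissue were combined by Fisher's method, so each tissue has 1 deposited list. The deposited lists give each peak a score (not used here), a signal, which is the AUC of the −log10 p above the threshold, the −log10 p at the summit, and the summit position. None was scaled between lists.

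Starts were counted from 0 in the lists and are printed from 1. Members were all peaks overlapping the stretch. Overlaps of at least 1 bp were found with bedtools 2.31.1, and other steps used python 3.11.15, numpy 2.4.6, pandas 2.3.3, scipy 1.17.1, and matplotlib 3.10.9. The overlap step was tested on simulated data. The members, the genes looked for, and the rules were chosen with earlier results of these data known. Peaks described singly are the 5 largest by AUC of hypothalamus and muscle, the 5 highest hypothalamus summits, all liver peaks, all muscle-only peaks, and all regions in 3 lists. Any other peak given singly was chosen after its values were seen. Parts of the plan that need gene starts, sequence, motifs, or markers on ARS-UCD1.2 were not carried out, and windows of 100 kb stood in for gene intervals.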

Additional observations from a re-analysis of the deposited data

How the results depend on the processing

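Of 63 recomputed values of 14 results, 44 stayed within 1.5 times the reported count or inside the interval of the reported median, and 19 did not. For the liver median, that interval was the full range of its peaks (percentiles 1.9 to 87.2). Liver medians of 78.6, 80.3, and 45.0 against 63.9 thus counted as inside, which says little about their stability. With only summits of at least 5 kept, the stretch held 38 hypothalamus, 10 muscle, and 3 liver peaks, with 31 hypothalamus-only and 3 muscle-only peaks and 3 intervals in all 3 tissues. With the 22291 strongest peaks by summit in each list, 15 hypothalamus peaks (22375 bp, 9 hypothalamus-only) and 10 muscle peaks (4 muscle-only) were left. With the 22291 largest by AUC, 17 hypothalamus peaks (25405 bp, 11 hypothalamus-only) and 9 muscle peaks (3 muscle-only) were left. In these cases fewer peaks entered by construction, but the cut at 22291 is the length of the liver list and left liver peaks unchanged. Shares over all chromosomes were not computed at these settings, so the counts in 1 list only have no background here. The order hypothalamus, muscle, liver in number of peaks and base pairs held in each of these settings. The cut at 22291 evens out whole lists, but only 12063 of the liver peaks kept lie on chromosomes 1 to 29 and X. How many peaks the cut left there in the other lists was not computed, so whether the order depends on list length was not tested. A stretch narrowed by 100 kb at each end held 3 liver peaks. With 50% reciprocal overlap required, 0 regions were in all 3 tissues, since the hypothalamus peaks are longer. At this setting 1 liver peak, from 21583899 to 21584348, was in liver only. It had 18.3% of the length of the hypothalamus peak and 39.9% of the length of the muscle peak.

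No paired analysis was possible because each list holds 1 value per peak for the 3 heifers together, and leaving out a heifer could not be run for the same reason. Gene intervals were replaced by windows of 100 kb, of which 14 held a peak by overlap and by midpoint. Depth and the spread between heifers limit every comparison between tissues and cannot be read from the lists. The paper reports mapping statistics per sample, which were not used here.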

Other observations

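Before the FTO and IRX3 stretch, no peak of any tissue was listed from 20539895 to 21516008 on chromosome 18 of ARS-UCD1.2, a distance of 976 kb that 0.173% of the 83326 stretches between peaks on chromosomes 1 to 29 and X reached. That empty part lies within a longer one without muscle or liver peaks. From 19211390 to 21542216, over 2331 kb, 58 hypothalamus peaks followed each other with no muscle or liver peak on or between them, and the last 2 of these are the first hypothalamus peaks inside the stretch. Of 13881 such runs, 9 held as many peaks. Their summits ranged from 3.49 to 21.35 with a median of 6.34.

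In the 200 kb after the stretch lay 3 hypothalamus, 3 muscle, and 1 liver peak. Beside the region listed in all 3 tissues, which holds a further short muscle peak from 23234692 to 23234936 (summit −log10 p 3.99), these were hypothalamus-only peaks from 23241596 to 23241804 (4.67) and from 23287167 to 23288436 (10.81, percentile 80.0, AUC 4155) and a muscle-only peak from 23256568 to 23256883 (5.52, percentile 52.9).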
